A study of Homo sapiens with 18 samples.

Results

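Glucose uptake and glycolysis were followed through 10 genes of the TempO-Seq table: the glucose transporter SLC2A1, the enzymes HK1, HK2, PFKP, ALDOA, PGK1, ENO1, PKM and LDHA, and the kinase PDK1. They were picked by gene symbol, though with earlier results of these data known. They were read by 11 probes, since ENO1 has a pair of probes, out of 21111 probes for 19289 gene symbols. TempO-Seq joins 2 short detector oligonucleotides where they lie side by side on a target RNA and counts the joined product by sequencing, so that each probe reports a short stretch of a transcript. The libraries came from the established triple-negative breast cancer (TNBC) cell lines BT549 and Hs578T, which the paper calls mesenchymal-like, and SUM149PT, which it calls basal-like. Each cell line was transfected with 50 nM of a pool of siRNAs against ASAP1 (siASAP1) or with siCtrl, a pool of kinase siRNAs, and was lysed after 72 h, with 3 libraries in each group and 18 in all. ASAP1, an Arf GTPase-activating protein, is amplified in all of these cell lines according to the paper, and no untransfected cells are compared here.

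Glucose enters the cell through facilitative transporters such as SLC2A1 and is trapped by hexokinases as glucose 6-phosphate. The glycolytic enzymes then split it to pyruvate, with PGK1 and PKM each forming ATP. LDHA reduces pyruvate to lactate, while PDK1 phosphorylates and inhibits the pyruvate dehydrogenase complex and so keeps pyruvate out of the mitochondria. Tumor cells often run this route at a high rate in the presence of oxygen, and many of these genes are known targets of the hypoxia-inducible factor HIF-1.

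The values below are normalized counts, that is, reads scaled by the size factor of their library. Levels were compared between libraries and not between genes, because probes differ in how well they capture their target. The libraries held between 4.63 and 12.5 M reads, and the probes of the 10 genes were read between 0 and 52890 times. ASAP1 stood between 367 and 783 normalized counts in the siASAP1 libraries of BT549 and between 944 and 1107 in its siCtrl libraries, and between 782 and 1262 against between 1414 and 2698 in Hs578T. In SUM149PT, siASAP1 libraries held between 184 and 468 normalized counts of ASAP1, and siCtrl libraries 1 and 3 held 1087 and 1314. The library labelled siCtrl 2 of SUM149PT held 189, inside the range of the siASAP1 libraries and against its label, so results that rest on it are given with and without it. The 8 probes tested for epithelial and basal-like genes were all higher in SUM149PT than in BT549 and in Hs578T. EPCAM stood between 20400 and 36700 in the siCtrl libraries of SUM149PT and at most at 23.6 in those of the other 2 cell lines. The basal keratin KRT14 of the same list, too low to test, went the other way. It was at 0 in the siCtrl libraries of SUM149PT and reached 12.8 in Hs578T and 3.14 in BT549. Of 13 probes for mesenchymal genes, 13 were higher in Hs578T and 10 in BT549 than in SUM149PT, while CDH2 was lower in BT549 by 2.45 on the log2 scale.

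**Figure D1:**
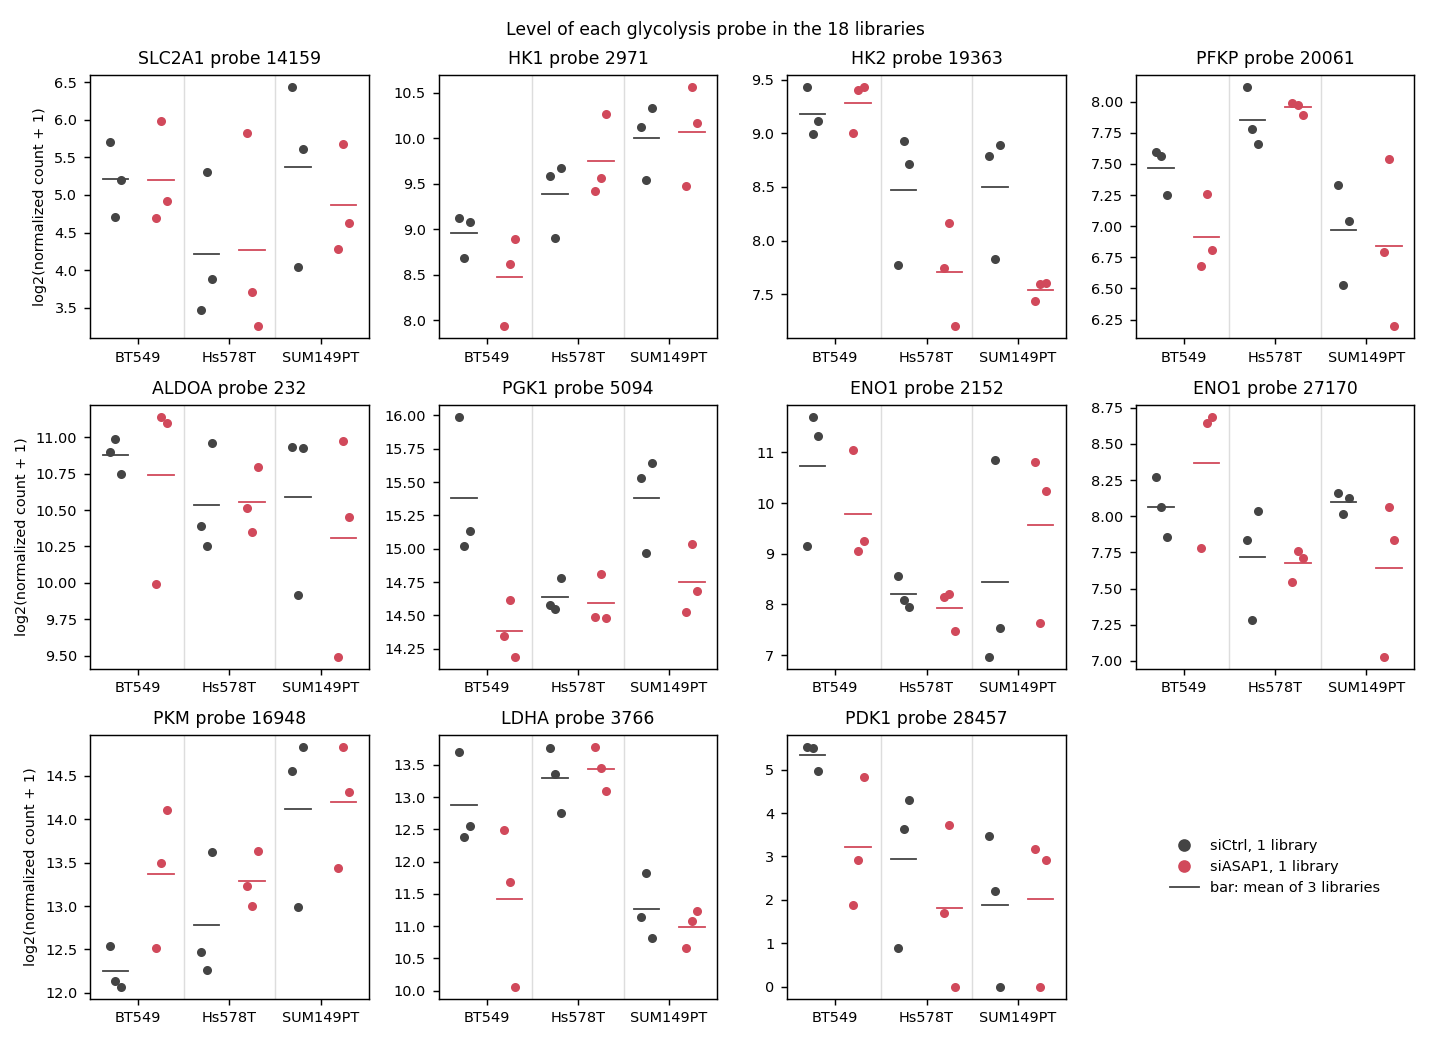
Level of the 11 probes as log2(normalized count + 1) on the vertical axis, by cell line and siRNA on the horizontal axis, with a point for each library and a bar for the mean of 3. In BT549, PGK1 and PDK1 of the siASAP1 libraries lie below all 3 siCtrl libraries, while the 2 ENO1 probes follow different patterns.

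In BT549, LDHA and PDK1 fell and PKM rose after siASAP1 by the limits the study used, a p-value under 0.05 and an absolute log2 fold change (Log2 FC) over 1, without adjustment for the number of probes. These 3 of 11 probes stood against 6.97% of the 9666 probes tested in BT549. That share itself rested on single libraries, being 22.5% without siASAP1 1, where 3 of 11 members passed, and 3.44% without siASAP1 3, where 1 passed. Nothing in the table passed a Benjamini-Hochberg adjusted p of 0.05 in any of the 3 cell lines with all libraries in the fit, and these 3 did not either. By direction, 8 of the 11 probes were below 0 in BT549, with a median Log2 FC of -0.48 against 0 over all probes. Only PGK1 and PDK1, 2 of 11 probes, had groups that did not overlap, where 13.9% of all probes did the same.

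**Figure D2:**
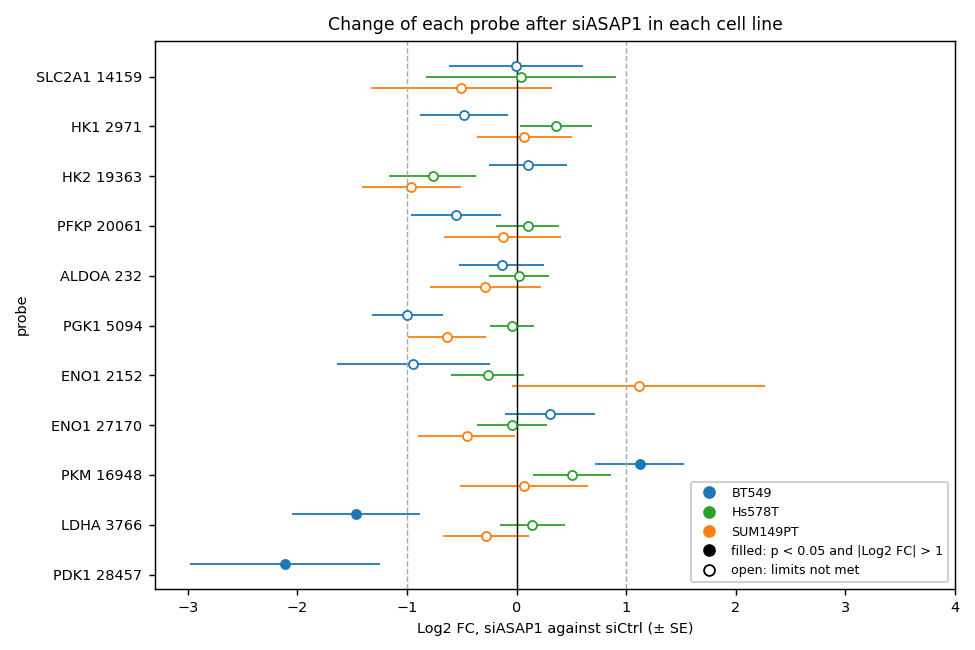
Log2 FC (siASAP1 against siCtrl) with its SE on the horizontal axis for each probe on the vertical axis, in each cell line, with filled points where p was under 0.05 and the absolute Log2 FC over 1. The only filled points are PKM, LDHA and PDK1 in BT549, and PDK1 has no point in Hs578T and SUM149PT, where its mean was under 10.

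LDHA, which turns pyruvate into lactate, held 13302, 5351 and 6015 normalized counts in the siCtrl libraries of BT549. The siASAP1 libraries held 5759, 3296 and 1067. Library siASAP1 1 thus stood above the lower of the siCtrl libraries, and siASAP1 3 was the lowest of all. The Log2 FC was -1.47 (SE 0.58, adjusted p = 0.61, limma). Without siASAP1 3 it was -0.79 and without siCtrl 1 it was -1.06, and the call was lost in both cases.

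PKM, pyruvate kinase, makes the pyruvate that LDHA uses, and it moved the other way. It held 5960, 4509 and 4297 normalized counts in the siCtrl libraries and 5840, 11579 and 17661 in the siASAP1 libraries. Libraries siASAP1 2 and 3 were well above the siCtrl range while siASAP1 1 was inside it. The Log2 FC was 1.12 (SE 0.41, adjusted p = 0.60, limma), with 0.76 when siASAP1 3 was left out, and the call was also lost without siASAP1 2 or siCtrl 3. PKM over LDHA, a ratio formed after the values were seen and not tested, ran from 0.448 to 0.843 in the siCtrl libraries and from 1.01 to 16.6 in the siASAP1 libraries of BT549, with no overlap. Because PKM and LDHA had already passed in opposite directions there, this separation adds no support to either call. In Hs578T the groups overlapped, with 0.406 to 1.82 after siCtrl and 0.682 to 1.46 after siASAP1. They also overlapped in SUM149PT, with 10.6 and 16 in siCtrl 1 and 3, 2.23 in the library labelled siCtrl 2, and 6.84 to 13.6 after siASAP1. The PKM gene gives the M1 and M2 isoforms by a choice between 2 exons, and the part of the RNA read by the probe is not given in the sources used here.

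PDK1 was near the lowest countable level. In BT549 it held 44.9, 44.0 and 30.2 normalized counts in the siCtrl libraries, from between 36 and 70 reads. The siASAP1 libraries held 2.7, 6.6 and 27.4, from between 3 and 30 reads. All 3 siASAP1 libraries were below the siCtrl libraries, although the highest of them came close to the lowest control. The Log2 FC was -2.12 (SE 0.87, adjusted p = 0.62, limma) on the scale of log2(normalized count + 1), and it ran from -1.45 to -2.92 with a library left out. The call remained only when siASAP1 3 was the library left out. In Hs578T and SUM149PT PDK1 had at most 21 reads in any library, too few to show a change at this depth.

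PGK1, which makes the first ATP of the pathway, was the most even of the 11 probes between replicates, with a within-group SD of 0.31 on the log2 scale, lower than in all but 3.95% of the probes. It held 65073, 33258 and 35870 normalized counts in the siCtrl libraries of BT549. The siASAP1 libraries held 20835, 25084 and 18697. No siASAP1 library reached a siCtrl library. The Log2 FC of -0.997 (SE 0.33, adjusted p = 0.55, limma) missed the fold limit of 1 by a margin smaller than its SE, and it ran from -0.69 to -1.18 when 1 library was left out, with the limits met without siASAP1 2, siCtrl 2 or siCtrl 3. The enolase probe ENO1_2152, described below with its twin, also met them when siASAP1 1 or siCtrl 1 was left out.

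Many of the members are known targets of HIF-1, and the stretches before their starts were searched for ACGTG, a form of the core of its motif. The windows of the 3 genes with 2 or more matches are shown, and that of PKM as one without a match. The windows are the 250 bases before the RefSeq gene start on GRCh38.p14, read 5′ to 3′ on the strand of the gene. ACGTG was searched on both strands and is set in capitals, and so is CACGTG, the E-box, which holds ACGTG on both strands and was counted once.
LDHA (chr11:18394313-18394562, plus strand): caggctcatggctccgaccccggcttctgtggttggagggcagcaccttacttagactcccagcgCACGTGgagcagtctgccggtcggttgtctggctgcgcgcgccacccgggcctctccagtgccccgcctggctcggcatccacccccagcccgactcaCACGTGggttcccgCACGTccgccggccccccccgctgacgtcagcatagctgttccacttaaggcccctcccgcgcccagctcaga
PGK1 (chrX:78103998-78104247, plus strand): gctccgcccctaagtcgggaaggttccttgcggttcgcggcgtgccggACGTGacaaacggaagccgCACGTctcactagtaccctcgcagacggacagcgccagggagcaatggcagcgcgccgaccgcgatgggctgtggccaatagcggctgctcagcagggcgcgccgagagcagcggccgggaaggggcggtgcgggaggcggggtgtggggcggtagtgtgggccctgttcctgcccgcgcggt
PKM (chr15:72231191-72231440, minus strand): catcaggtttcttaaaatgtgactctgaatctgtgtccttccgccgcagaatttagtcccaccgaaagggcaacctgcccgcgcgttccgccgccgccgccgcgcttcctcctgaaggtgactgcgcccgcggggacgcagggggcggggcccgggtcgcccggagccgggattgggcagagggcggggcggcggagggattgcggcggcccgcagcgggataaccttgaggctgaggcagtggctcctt
HK2 (chr2:74833877-74834126, plus strand): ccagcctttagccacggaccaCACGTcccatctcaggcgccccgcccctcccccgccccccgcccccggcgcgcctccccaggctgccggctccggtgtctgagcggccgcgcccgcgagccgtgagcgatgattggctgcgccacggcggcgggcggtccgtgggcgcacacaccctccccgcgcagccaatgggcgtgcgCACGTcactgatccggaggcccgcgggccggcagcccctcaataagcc
The LDHA window held 3 matches, of which 2 lay in an E-box, and the windows of PGK1 and HK2 held 2 each. ALDOA held 1, and the windows of SLC2A1, HK1, PFKP, ENO1, PKM and PDK1 held none. At least 1 match was thus found in 4 of 10 genes against 18.5% of 35116 windows of the same length, and 2 or more in 3 of 10 genes against 2.61%. These windows were not matched to the members in G and C content, so the comparison cannot show an enrichment. Of the 12 hypoxia-induced genes outside glycolysis whose windows were found, 7 held a match. In BT549 the Log2 FC of the genes with a match was -1.47 for LDHA, -0.997 for PGK1, -0.14 for ALDOA and 0.10 for HK2. Of the genes without a match, PDK1 had -2.12, PFKP -0.55, HK1 -0.48, SLC2A1 -0.01 and PKM 1.12. The ENO1 probes, also of a gene without a match, had -0.94 and 0.31. The part of HIF-1 in these changes was not tested. The absence of the letters from a window says nothing of other stretches of the gene. Nor does it speak of other forms of the core such as GCGTG, which were not searched. The window of ENO1, counted here as without a match, holds GCGTG. The windows of PDK1 and HK1 contained 35.6% and 46.8% G and C against at least 57.6% in the other 8, and a RefSeq gene start need not be the start in use in these cells.

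The transporter and the upper enzymes did not pass in BT549. SLC2A1 was read only between 8 and 66 times in a library, and its Log2 FC in BT549 was -0.01 (SE 0.61). HK1 had -0.48 (SE 0.40), HK2 0.10 (SE 0.35), the phosphofructokinase PFKP -0.55 (SE 0.41) and the aldolase ALDOA -0.14 (SE 0.39). PFKP, which commits sugar to glycolysis, held 192, 188 and 152 normalized counts after siCtrl and 101, 152 and 111 after siASAP1, so that the groups met at 152. SEs of this size leave changes of about the fold limit undecided for most of these probes.

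In Hs578T, 0 of 10 probes passed, where 2.78% of 9500 probes did, and 0 of 10 had groups that did not overlap, where 12.1% of all probes did. The Log2 FC of PGK1 was -0.04 (SE 0.20), of LDHA 0.15 (SE 0.30) and of PKM 0.51 (SE 0.36). HK2 was the lowest, with -0.77 (SE 0.40, adjusted p = 0.92, limma). Its siCtrl libraries held 218, 485 and 418 normalized counts and its siASAP1 libraries 214, 285 and 146. The control library with 218 lay among the siASAP1 libraries, and without it, siCtrl 1, HK2 passed with a Log2 FC of -1.11.

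In SUM149PT, 0 of 10 probes passed, where 9.56% of 10078 probes did. HK2, the hexokinase that is low in most adult tissues and high in many tumors, held 172, 192 and 193 normalized counts after siASAP1. Its siCtrl libraries 1 and 3 held 440 and 475, and the library labelled siCtrl 2 held 227. HK2 was the only 1 of 10 probes whose groups did not overlap, where 17.3% of all probes did the same, and its Log2 FC was -0.96 (SE 0.45, adjusted p = 0.51, limma). Without the library labelled siCtrl 2, HK2 passed with -1.30 (adjusted p = 0.096, limma) and ENO1_2152 with 2.31 (adjusted p = 0.14, limma). These 2 of 10 probes then stood against 23.4% of 9953 probes, of which 107 had an adjusted p under 0.05. PGK1 was -0.63 (SE 0.36) with that library and -0.84 without it (adjusted p = 0.14, limma), and its groups no longer overlapped. That was the case for 4 of 10 probes without the library, against 44.8% of all probes.

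Over the 3 cell lines together, with the cell line as a covariate, 0 of 11 probes passed an adjusted p of 0.05, where 1.74% of 10475 probes did. PGK1 came nearest among the 11 probes, at -0.56 on the log2 scale (SE 0.20, adjusted p = 0.15, limma). HK2 had -0.54 (SE 0.23, adjusted p = 0.25, limma) and PKM 0.57 (SE 0.30, adjusted p = 0.37, limma). Though 10 of 11 probes were below 0, their median was -0.16 against 0.02 over all probes. The effect of siASAP1 differed between cell lines for 0 of 11 probes by the interaction test, which called 0.00955% of all probes, a single one. A difference between the falls of LDHA, PDK1 or PGK1 in BT549 and their values elsewhere was therefore not shown.

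The hexokinases were then set against each other within each library, a comparison chosen after the values were seen. HK2 over HK1 was 1.24, 1.24 and 1.02 in the siCtrl libraries of BT549 and 2.10, 1.73 and 1.46 after siASAP1. In SUM149PT it was 0.393 and 0.368 in siCtrl 1 and 3 and 0.304 in the library labelled siCtrl 2, and 0.242, 0.126 and 0.167 after siASAP1. The ratio thus stood higher after siASAP1 in BT549 and lower in SUM149PT, with no overlap in either cell line. Hs578T had 0.284, 1.01 and 0.511 after siCtrl and 0.312, 0.377 and 0.118 after siASAP1, and these groups overlapped. On the log2 scale the mean ratio changed by 0.58 in BT549, by -1.03 in SUM149PT (exact permutation p = 0.1 in each, the smallest that 3 against 3 can give) and by -1.13 in Hs578T (exact permutation p = 0.3). Among 18 comparisons of the ratios HK2 over HK1 and LDHA over LDHB, the smallest Benjamini-Hochberg p was 0.2. The shifts of BT549 and SUM149PT lay 1.62 apart, and 1.72 apart without the library labelled siCtrl 2. No p is given for that distance, because it was looked at after both cell lines were seen not to overlap in opposite directions, and a permutation test could then only return its smallest value. Neither hexokinase alone differed in effect between cell lines, with adjusted p = 0.97 for HK1 and 0.93 for HK2 (limma).

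**Figure D3:**
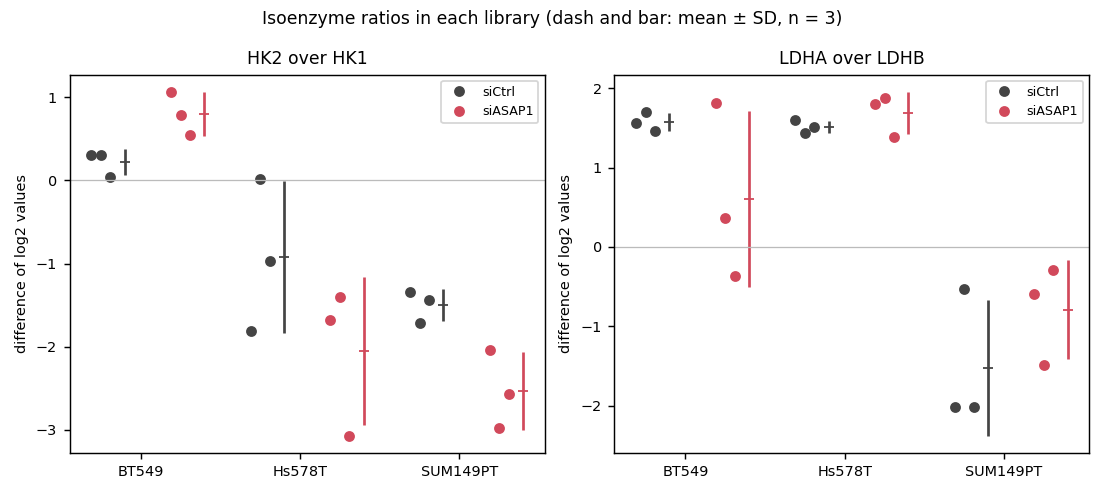
Difference of the log2 values of HK2 and HK1 (left) and of LDHA and LDHB (right) on the vertical axis, by cell line and siRNA, with a point for each library and the mean ± SD of 3 beside the points. The 6 BT549 libraries lie above 0 for HK2 over HK1, with the siASAP1 libraries higher, while the siASAP1 libraries of SUM149PT lie between -2.98 and -2.04.

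Between the cell lines, levels were compared in the siCtrl libraries by contrasts in a fit of all 18 libraries, with an adjusted p of 0.05 as the limit. With all libraries in the fit, LDHA was the only member that passed in both siCtrl contrasts against SUM149PT. The siCtrl libraries of SUM149PT held 2261 and 1811 normalized counts, and 3632 in the library labelled siCtrl 2, while Hs578T held 13906, 10551 and 6916. The groups did not overlap, and the difference of Hs578T from SUM149PT was 2.03 on the log2 scale (SE 0.51, adjusted p = 0.0071, limma). BT549, with between 5351 and 13302, stood 1.62 above SUM149PT (SE 0.51, adjusted p = 0.031, limma). PKM was ordered the other way, with 24073 and 29050 normalized counts in SUM149PT and 8110 in the library labelled siCtrl 2 against at most 5960 in BT549, a difference of -1.87 (SE 0.52, adjusted p = 0.015, limma). The calls were 2 of 11 for BT549 against SUM149PT, where 21.1% of all probes were called, 1 of 11 for Hs578T against SUM149PT, where 23.9% were, and 0 of 11 for BT549 against Hs578T, where 17% were. Members were thus called no more often than probes at large. Without the library labelled siCtrl 2, HK1 (-1.27) and ENO1_2152 (3.48) joined LDHA and PKM for BT549 against SUM149PT, and PGK1 (-0.95) and PKM (-1.91) joined LDHA for Hs578T. These 4 and 3 of 11 probes stood against 29.9% and 28.6% of all probes, which had risen as well. For BT549 against SUM149PT, 0 of 11 passed without siCtrl 3 of SUM149PT and only PDK1 without siCtrl 1 of SUM149PT, while LDHA was lost without siCtrl 1 of BT549 and PKM without siCtrl 3 of BT549.

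The same contrasts in the siASAP1 libraries, which are other libraries of the same cell lines, gave a partly different set. LDHA of Hs578T again stood above SUM149PT, by 2.45 (SE 0.51, adjusted p = 0.0015, limma), and PFKP by 1.11 (adjusted p = 0.032), 2 of 11 probes against 29.1% of all probes. BT549 stood above SUM149PT by 1.74 for HK2 (adjusted p = 0.0021) and below it by 1.59 for HK1, a value of -1.59 (adjusted p = 0.0039), 2 of 11 probes against 22.9%. The differences of LDHA and PKM between BT549 and SUM149PT were 0.43 and -0.82 there and did not pass. BT549 differed from Hs578T by -2.03 for LDHA, 1.58 for HK2 and -1.27 for HK1, 3 of 11 probes against 20.6%.

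LDHB, the lactate dehydrogenase subunit that favors the step from lactate to pyruvate, was set against LDHA within each library. LDHA over LDHB lay between 2.72 and 3.24 in the 6 siCtrl libraries of BT549 and Hs578T. It was 0.248 and 0.247 in siCtrl 1 and 3 of SUM149PT and 0.692 in the library labelled siCtrl 2. No library of SUM149PT reached either of the other cell lines under siCtrl (differences of 3.09 and 3.03 on the log2 scale, exact permutation p = 0.1 in each, the smallest possible). After siASAP1 the ratio in BT549 spread over 3.5, 1.29 and 0.777, while in Hs578T it stayed between 2.61 and 3.67. SUM149PT held 0.663, 0.357 and 0.821, overlapping BT549, and the difference between these 2 cell lines was 1.39 on the log2 scale (exact permutation p = 0.2).

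**Figure D4:**
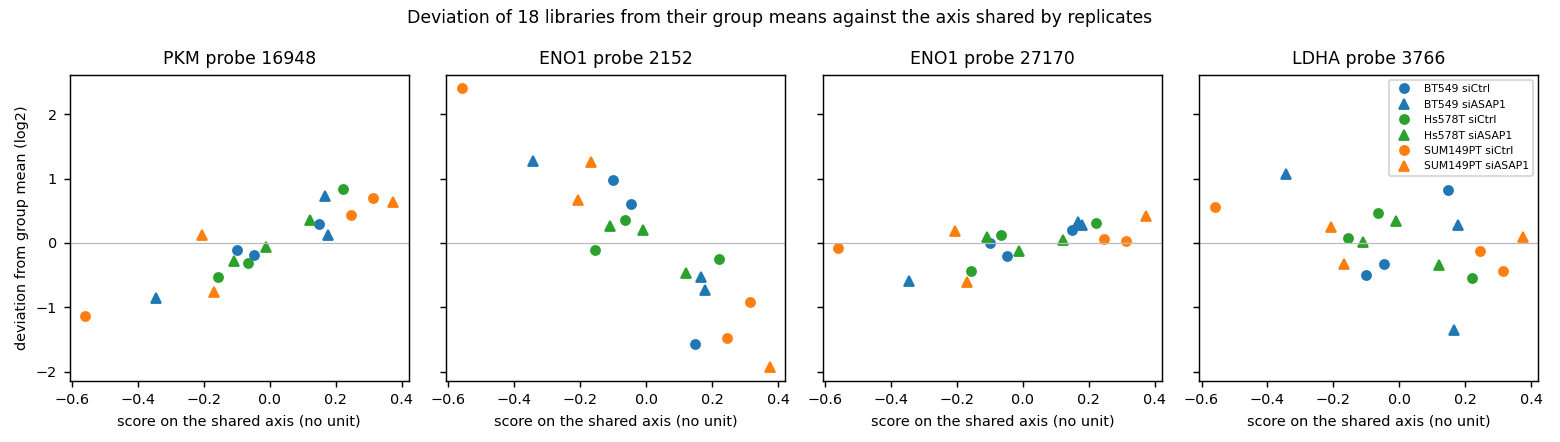
Deviation of each library from its group mean in log2 units (vertical axis) against the score of the library on the axis that replicates share (horizontal axis, no unit), for 4 probes in 18 libraries. PKM rises along the axis and ENO1_2152 falls along it, while ENO1_27170 and LDHA follow it less closely.

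Replicates of a group differed from each other along an axis that all groups shared. It was the first principal component of the deviations from the group means and held 42.5% of that variance, and the library labelled siCtrl 2 of SUM149PT and siASAP1 1 of BT549 lay at its low end. Over the 18 libraries PKM followed it with a Pearson r of 0.91, ALDOA with 0.86 and HK1 with 0.79, while ENO1_2152 ran against it with -0.92. LDHA had -0.43 and PDK1 -0.17. An absolute r over 0.8 was found for 25% of all probes, and because the libraries defined the axis these values are descriptions. ASAP1 itself differed along the axis in several groups. Scores of 0.246, -0.56 and 0.314 went with 1087, 189 and 1314 normalized counts of ASAP1 in the siCtrl libraries of SUM149PT. In the siASAP1 libraries of BT549, -0.344, 0.178 and 0.166 went with 367, 730 and 783. The order was not kept everywhere, with -0.101 and -0.047 against 966.5 and 944 in siCtrl 2 and 3 of BT549. PKM of BT549 thus ran between 5840 and 17661 normalized counts in siASAP1 libraries that also differed in ASAP1. The part of the axis and of the ASAP1 level in its call was not tested.

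ENO1, enolase, was the only gene with more than 1 probe, and its probes did not agree. ENO1_27170 varied 3.17-fold from its lowest to its highest library, from 130 to 412 normalized counts. ENO1_2152 varied 26.8-fold, from 124 to 3335. In the siCtrl libraries of BT549, ENO1_2152 held 569, 3335 and 2566 normalized counts while ENO1_27170 held 308, 267 and 231. The library with the lowest value of one probe was thus the highest for the other. The ratio of the probes ran from 0.437 to 13.9 over the 18 libraries, and within groups they had a Pearson r of -0.58. ENO1_2152 lay at the 79.5th percentile of within-group SDs over all probes and ENO1_27170 at the 6.69th. In SUM149PT the Log2 FC was 1.11 (SE 1.15) by ENO1_2152 and -0.46 (SE 0.45) by ENO1_27170, and in BT549 it was -0.94 (SE 0.70) and 0.31 (SE 0.41), opposite in sign each time, with none of the 4 values past the limits. In Hs578T both were below 0, at -0.26 (SE 0.33) and -0.05 (SE 0.32), and over the 3 cell lines at -0.03 and -0.07. GENCODE release 29 lists 17 transcripts of ENO1 and 4 pseudogenes named after it, and the stretch that each probe reads is not given in the sources used here. Pseudogenes are also named after LDHA (6), PKM (5), ALDOA (2), PGK1 (1) and HK2 (1), so their counts could include reads of near-identical copies.

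Within groups, members formed a close set and a loose one. ALDOA and PKM had a Pearson r of 0.93 over the 18 libraries, PKM and HK1 0.86, HK1 and ALDOA 0.85 and ALDOA and ENO1_27170 0.84. PGK1 was less close to them, with r between 0.44 and 0.52, and SLC2A1 was closest to HK2 with 0.63. LDHA had r between -0.53 and 0.26 with all other members. These libraries share the axis above, so the values describe libraries and not a relation of the genes.

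**Figure D5:**
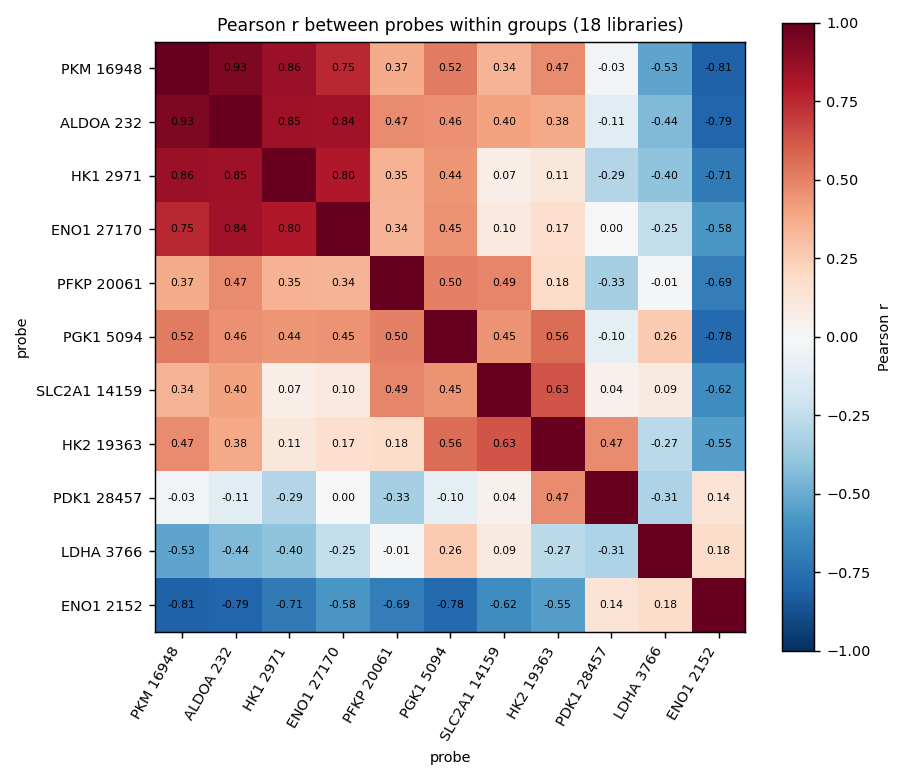
Pearson r between each pair of the 11 probes over the deviations of 18 libraries from their group means, with the color scale from -1 to 1. PKM, ALDOA, HK1 and ENO1_27170 form the block of high values at the upper left, and ENO1_2152 is negative with all but LDHA and PDK1.

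The mean of the 11 probes was most like RNASET2 (Pearson r = 0.823), FAM162A (0.822), VAMP3 (0.799), POLR3GL (0.779) and UXS1 (0.774) over the 18 libraries when each probe was centred on its cell line. Without that centring FAM162A (0.836), ZDHHC9 (0.777), PTPRJ (0.764), MRPS27 (0.743) and PRPS2 (0.742) were the closest. Of the members themselves, PGK1 (0.73) and PDK1 (0.70) followed this mean most closely and PKM (-0.01) did not. Each member is part of the mean, so these r are raised in part by construction. That holds most for PDK1, which had the largest within-group SD of the 11 probes (1.59 on the log2 scale) at 0 to 70 reads.

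The rest of the pathway was read through lists of genes chosen by function. In BT549, where 6.97% of all probes passed, 1 of 10 probes for other glycolytic enzymes did: the neuronal enolase ENO2 fell, by -1.09. Counts of 1 in a list of this size are near that share. Among 12 probes for pyruvate and lactate handling, the phosphatase PDP2 (1.64), which reactivates pyruvate dehydrogenase, and the lactate exporter SLC16A3 rose and the kinase PDK3 (-1.58) fell. SLC16A3 was low throughout, with between 14.2 and 41.1 normalized counts after siASAP1 and between 1.4 and 10.1 after siCtrl. PFKFB4, which sets the level of fructose 2,6-bisphosphate, fell by -1.49, the only 1 of 11 probes for regulators to pass. The collagen prolyl hydroxylase P4HA1 fell by -2.13, 1 of 11 probes for hypoxia-induced genes that are not glycolytic, and pyruvate carboxylase PC rose by 1.29, 1 of 7 probes for gluconeogenesis and glycogen. None of 3 probes for other glucose transporters or 5 for the pentose phosphate pathway passed. The hypoxia-induced list had a median of -0.74 and the other glycolytic enzymes -0.13, against 0 over all probes.

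In Hs578T, where 2.78% of all probes passed, TXNIP, an inhibitor of glucose uptake, rose by 1.58, 1 of 10 probes for regulators. PCK2, 1 of 7 probes for gluconeogenesis and glycogen, had -3.11 with a siASAP1 library at 0. The other metabolic lists held 0 calls. In SUM149PT, where 9.56% of all probes passed, PDK3 (-1.98) fell and PDP2 (1.53) rose, 2 of 14 probes for pyruvate and lactate handling. PFKFB4 (1.99) and ARRDC4 (2.23), 2 of 12 probes for regulators, rose. So did the transporter SLC2A6, 1 of 2 probes, and the 2 VEGFA probes (1.57 and 1.92), 2 of 12 hypoxia-induced probes. Of other glycolytic enzymes 0 of 10 passed, with a median of -0.71 against 0.09 over all probes. SLC2A6 held between 29.1 and 56.5 normalized counts after siASAP1 and between 0 and 15.5 after siCtrl. Without the library labelled siCtrl 2, 5 of those 10 passed, with TPI1 (-1.73), PGAM1 (-1.23), LDHB (-1.22) and GAPDH (-1.12) lower and ADPGK (1.02) higher. In the same fit PDK3 (-1.47), PDP2 (1.37), PFKFB4 (1.68) and ARRDC4 (3.23) still passed, as did SLC2A6, while of VEGFA only probe VEGFA_28053 (1.92) did. Regulators then held 5 of 12 calls, among them HIF1A (3.96), the oxygen-controlled subunit of HIF-1, and its paralog EPAS1 (-1.46). DDIT4 (1.56) and P4HA1 (-1.30) of the hypoxia-induced list, TKT (2.28) of the pentose phosphate pathway and the glycogen phosphorylase PYGL (-1.32) passed only there, against 23.4% of all probes. PFKFB4 thus fell in BT549 and rose in SUM149PT, but the interaction test called 0 of 12 probes for regulators.

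Markers of cell state moved in the same libraries. In BT549, SNAI2 (-2.32 and -1.57 by its 2 probes) and the probe SPARC_6699 (-2.72) fell, 3 of 13 mesenchymal probes against 6.97% of all probes. The other SPARC probe, SPARC_24939, with between 9310 and 18900 normalized counts in the siCtrl libraries, did not pass. The sum over the mesenchymal probes lay between 62200 and 112000 normalized counts after siASAP1 and between 60200 and 62300 after siCtrl. In SUM149PT, where 9.56% of all probes passed, KRT6A (1.87), KRT17 (1.54) and CDH1 (1.24) rose, 3 of 8 epithelial and basal-like probes. Of 9 mesenchymal probes the 3 FN1 probes and SNAI2 (1.48) rose and VIM_18185 (-1.48) fell. The mesenchymal sum there lay between 10400 and 12500 after siASAP1 and between 6000 and 7630 after siCtrl, and the epithelial sum between 26300 and 36800 against between 22100 and 43700. Without the library labelled siCtrl 2, KRT18 (-1.16) and the probe KRT19_3690 (-1.47) also fell, where 23.4% of all probes passed. In Hs578T, EPCAM rose by 1.42 from a low level. CD68, the only leukocyte marker high enough to test, rose by 2.12 in BT549 and by 1.41 in Hs578T, while PTPRC and CD3E were at 0 in all siCtrl libraries. The part of these markers in the changes of the glycolytic genes was not tested.

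PDK3, which acts on the same complex as PDK1, was the only gene of these metabolic lists to pass over the 3 cell lines, where 1.74% of 10475 probes did. It was 1 of 15 probes for pyruvate and lactate handling, and 0 passed among the 10, 4, 12, 6, 12 and 7 probes of the other metabolic lists. A single call among these lists is thus near the share of all probes. PDK3 was also named after all lists had been read. Its probe held between 112 and 336 normalized counts after siASAP1 against between 458 and 638 after siCtrl in BT549, and between 76.8 and 147 against between 176 and 216 in Hs578T. In SUM149PT it held between 76.9 and 93.3 against between 169 and 677. The groups did not overlap in any of the 3 cell lines. The Log2 FC was -1.46 (SE 0.28, adjusted p = 0.011, limma), and -1.28 (adjusted p = 0.012) without the library labelled siCtrl 2.

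Between cell lines, some transporters outside the members stood far apart while SLC2A1 passed in none of the 3 contrasts, with log2 differences of -0.16, -1.15 and 0.99. Of 4 probes for other glucose transporters, 3, 2 and 1 passed in these contrasts, against 21.1%, 23.9% and 17% of all probes. The lactate exporter SLC16A3 held between 1440 and 5500 normalized counts in the siCtrl libraries of SUM149PT, between 15.2 and 55.2 in Hs578T and between 1.4 and 10.1 in BT549. The glucose transporter SLC2A3 was ordered the other way, with between 245 and 346 in BT549, between 67.7 and 128 in Hs578T and at most 18.6 in SUM149PT. SLC16A3 and SLC2A3 passed in BT549 and in Hs578T against SUM149PT, with and without the library labelled siCtrl 2. SLC2A10 passed in all 3 contrasts (2.60, 6.28 and -3.68) and SLC2A8 in BT549 against SUM149PT (2.97). SLC2A10 held between 92.2 and 199 normalized counts in the siCtrl libraries of Hs578T and at most 5.72 in those of SUM149PT. Without the library labelled siCtrl 2, neither passed in BT549 against SUM149PT, while SLC2A6 (3.07) did. GAPDH was lower in BT549 than in SUM149PT by a log2 difference of -1.42 and than in Hs578T by -1.45, and LDHB was lower in BT549 than in SUM149PT by -1.48.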

How the data were processed

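The authors had reads counted per probe and scaled by DESeq2 size factors, and what they deposited are log2 values of these counts with 1 added. Aligner settings and genome build are not given in the sources used here. Whole reads were recovered from the values (100% within 0.1 read), and a probe needed a mean of at least 10 normalized counts to be tested. Tests used limma 3.58.1 in R 4.3.3 (lmFit, eBayes with trend) over all probes, with Benjamini-Hochberg adjustment. Each cell line was fitted on its 6 libraries, and other contrasts on all 18. The paper states biological triplicates. Members, lists and tests were chosen with earlier results of these data known, and the ratios and the replicate axis were chosen after the members' values were seen. By the rule for named genes, the text gives all members, up to 4 genes per list that passed and the 5 probes most like the members' mean by each measure, and GAPDH in SUM149PT was named beyond this rule after its value was seen. Tests were checked on simulated reads: most 8-fold changes were recovered in each comparison. These reads were drawn independently for each library, without the axis that replicates share here (42.5% of their variance). The recovery therefore does not give the power of the tests in these data. A first run with 4-fold changes had stopped at a preset minimum, and of those the interaction test missed most, so its lack of calls does not show equal effects. Alternatives were library totals, a pseudocount of 5, no filter, a minimum of 50, voom weights, the replicate block, a single fit and each library left out. Promoters came from RefSeq (10 of 10 genes matched). Figures used Python 3.11.15 and matplotlib 3.10.9.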

Additional observations from a re-analysis of the deposited data

Results flagged for a closer look

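HK2 over HK1 moved in opposite directions after siASAP1 in 2 cell lines. The mean log2 ratio changed by 0.58 in BT549 and by -1.03 in SUM149PT, with no overlap between siASAP1 and siCtrl in either. The ratio and the pair of cell lines were picked after the values were seen, and the difference between the cell lines was not tested independently of that choice. Over the 18 comparisons of ratios the smallest Benjamini-Hochberg p was 0.2 (exact permutation tests), and the interaction test gave adjusted p = 0.97 for HK1 and 0.93 for HK2 (limma). Within the ratio, BT549 moved mainly through HK1 (Log2 FC -0.48) and SUM149PT mainly through HK2 (-0.96), and neither of these values passed.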

How the results depend on the processing

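Of 1830 values of single members under the alternatives, 1768 kept their side of the limit, 42 passed and 20 no longer passed, and 84 changed sign, all of members that had not passed. The number of members that passed, with the share of all probes beside it, changed by over 1.5 times in these settings. For Hs578T against SUM149PT (1 member, 23.9%) it was 2 (29.1%) in the siASAP1 libraries and 3 (31.1%) without siASAP1 1 of BT549 and the library labelled siCtrl 2 of SUM149PT, an alternative chosen after seeing the data. For BT549 against SUM149PT (2, 21.1%) it was 4 (32.6%) without those 2 libraries. For BT549 against Hs578T (0, 17%) it was 1 (17.2%) with library totals (PGK1), 3 (20.6%) in the siASAP1 libraries and 1 (21.5%) without those 2 libraries. With 1 library left out, it ran from 1 to 3 in BT549 (3.44% to 22.5% of all probes), 0 to 1 in Hs578T (1.66% to 6.67%), 0 to 2 in SUM149PT (4.95% to 23.4%), 0 to 4 for BT549 against SUM149PT (16.7% to 29.9%), 1 to 3 for Hs578T against SUM149PT (17.9% to 28.6%) and 0 to 1 for BT549 against Hs578T (12% to 20.1%). In BT549 it was 2 with a minimum of 50, with the replicate block and in a single fit, where PDK1 was lost. With the minimum of 50, PDK1 was not tested at all, since its group means in BT549 were 12.2 and 39.7. The cause of the other changes was not tested. Over the 3 cell lines and for the interaction it stayed at 0, although without the 2 libraries 276 of all probes passed the interaction test against 1.

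Scaling by library totals moved the median Log2 FC of all probes from 0.09 to 0.29 in SUM149PT, from 0.01 to 0.12 in Hs578T and from 0.02 to 0.14 over the 3 cell lines, and the share of calls that were higher from 55.1% to 73.8%, from 48.1% to 69.5% and from 39% to 60.4%. Same-numbered libraries had correlations of their deviations between -0.65 and 0.35, so the numbers were not taken as pairs. With the replicate block, 2 members passed in BT549, where PDK1 was lost, 0 in Hs578T, 0 in SUM149PT, 0 over the 3 cell lines and 0 for the interaction, and the number of all probes that passed was 591 in BT549 (674 without the block), 435 in Hs578T (264), 351 in SUM149PT (963) and 34 over the 3 cell lines (182). Depth limits PDK1 and SLC2A1, and a group of 3 libraries limits the rest.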
